A study of Mus musculus with 8 samples.

Results

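Collagens, the proteins that crosslink or bind them, and the genes that mark stromal cells were followed in RNA of mouse pancreatic islets. The set held 42 genes, chosen by symbol from a fixed list, and all 42 of them were found among the 22632 genes of the deposited table. The rule used no measured value, but the list was drawn up with earlier results of these data known. Islets are the clusters of hormone-producing cells in the pancreas, and here they came from C57BL/6 mice in 4 groups, each with 2 libraries. These were wild type (Tcf7 +/+) at 8 weeks of age on a low-fat diet (10%), Tcf7 -/- at the same age and diet, wild type at 20 weeks on a high-fat diet (45%), and Tcf7 -/- at that age and diet. Wild-type mice were littermates of the mutants. Tcf7 encodes TCF-1, a transcription factor of Wnt signalling. How the allele was made, which exons it lacks and the sex of the mice are not given in the labels. The labels disagree on the control diet, low fat in one field and regular chow in another, and do not say when feeding of either diet started. Age and diet changed together in this design, so their parts in any difference between 8 and 20 weeks cannot be told apart. Any difference in handling or library preparation between the libraries of the 2 ages could not be told apart from them either. The labels are silent on whether libraries stand for separate or pooled animals, so the p-values measure only the spread between these libraries.

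Tcf7 itself was no lower under the knockout label. It stood at 0.277 and 0.381 RPM (the authors' unit, reads scaled to each library's depth) in wild type and 0.512 and 0.519 RPM under that label at 8 weeks. At 20 weeks it stood at 1.58 and 0.991 RPM in wild-type islets and 4.56 and 2.56 RPM under the knockout label, a log2 fold change of 0.97 ± 0.22 (SE; limma adjusted p = 0.16). A gene-wide count cannot show whether some exons were deleted. Every genotype below is therefore the label of the library.

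Islets sit within a fine capillary bed, and a basement membrane of type IV collagen, laminins, nidogen and perlecan lies where vessels meet endocrine cells. Around islets and ducts, fibroblasts and stellate cells lay down fibrillar collagens, which are trimmed, bound by small proteoglycans and crosslinked by lysyl oxidases outside the cell. Pericytes and smooth muscle cells, the mural cells of vessels, are known by contractile proteins and by receptors such as PDGFR-beta. Beta cells themselves make little matrix.

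These genes were low beside the hormone genes of the islet. Summed over the 42 genes, levels ran from 243 to 402 RPM per library, while the insulin gene Ins2 alone ran from 17271 to 27831 RPM. Per kilobase of exon, the highest means over 8 libraries were those of Loxl2 at 12.7, Col4a1 at 7.25, Rgs5 at 6.36, Timp3 at 4.12, Lamc1 at 3.91 and Sparc at 3.12 RPM per kb. Col3a1 stood at 0.502 RPM per kb, and Pdgfra was lowest at 0.0182 RPM per kb. Genes were tested where at least 2 libraries reached 1 RPM, which 33 members did. The other 9, Col1a1, Col5a1, Col6a2, Des, Lox, Loxl1, Lum, Mmp2 and Pdgfra, had fewer such libraries and are given by value. Of those tested, Col5a2, Col6a1, Dcn, Postn and Thy1 passed through their 8-week libraries alone and Timp1 through its 20-week libraries alone. For Dcn and Thy1 these were the 2 wild-type libraries. The defining fibroblast genes Col1a1, Lum and Pdgfra were below 1 RPM in every library.

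Libraries of the same group were unequal at 8 weeks. Replicates 1 and 2 were numbered here by order of the sample records, so the same number in different groups marks no link. Replicate 2 stood above replicate 1 for 40 of 42 members in wild type and for 41 of 42 in the knockout-labelled pair. Replicate 2 was also the higher for 74.4% and 94% of all tested genes there. The median log2 ratio of the tested members was 0.42 and 0.78, against 0.11 and 0.38 over all tested genes. At 20 weeks replicate 2 was the higher for 13 members in wild type and for 29 in the knockout-labelled pair, against 16.9% and 67% of all tested genes. Wild-type replicate 2 of 8 weeks held the highest value of 18 members, and knockout-labelled replicate 2 of 8 weeks that of 15. Markers of acinar cells, the enzyme-making cells around islets, summed to between 3011 and 24474 RPM at 8 weeks and between 9019 and 29451 RPM at 20 weeks, with 0 of 12 below 1 RPM throughout. At 20 weeks 11 of the 12 were called higher in wild type and 0 in the knockout-labelled libraries. Markers of the other islet hormone cells summed to 4838 to 7426 RPM at 8 weeks and 2235 to 3681 RPM at 20 weeks, with 3 of 6 called lower and 1 higher, and 0 below 1 RPM throughout. Of 8 beta cell markers Mafa was called lower, and of 5 pan-endocrine markers Chgb. The part of these lists in the results was not tested.

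The promoters of genes that later parts turn on are shown here as RefSeq gives them for the build GRCm38.p6, 250 bases up to the transcription start and read 5' to 3' on the gene's strand. Col3a1 and Sparc were among the genes lower at 20 weeks, Timp1 and Hspg2 among those higher. Capitals mark matches on either strand to the TATA box (TATAAA), the CCAAT box, the Sp1 core GGGCGG, the AP-1 site TGANTCA or the CArG box of serum response factor.
Col3a1, chr1:45311288-45311537, plus strand: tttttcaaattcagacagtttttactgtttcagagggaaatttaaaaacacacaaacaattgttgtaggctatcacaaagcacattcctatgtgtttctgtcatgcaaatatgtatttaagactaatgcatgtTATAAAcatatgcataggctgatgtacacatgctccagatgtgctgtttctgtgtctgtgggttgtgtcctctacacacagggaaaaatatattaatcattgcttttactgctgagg
Sparc, chr11:55420081-55420330, minus strand: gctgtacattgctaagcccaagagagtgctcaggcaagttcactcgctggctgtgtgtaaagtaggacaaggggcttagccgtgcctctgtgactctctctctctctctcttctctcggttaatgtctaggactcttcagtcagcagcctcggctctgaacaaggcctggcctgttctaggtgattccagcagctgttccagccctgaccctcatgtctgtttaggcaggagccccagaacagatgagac
Timp1, chrX:20869916-20870165, plus strand: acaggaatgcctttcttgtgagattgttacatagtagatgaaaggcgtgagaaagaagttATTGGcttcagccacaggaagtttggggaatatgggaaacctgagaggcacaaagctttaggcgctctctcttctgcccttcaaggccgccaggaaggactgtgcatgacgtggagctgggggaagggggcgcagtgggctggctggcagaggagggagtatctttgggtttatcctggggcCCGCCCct
Hspg2, chr4:137468553-137468802, plus strand: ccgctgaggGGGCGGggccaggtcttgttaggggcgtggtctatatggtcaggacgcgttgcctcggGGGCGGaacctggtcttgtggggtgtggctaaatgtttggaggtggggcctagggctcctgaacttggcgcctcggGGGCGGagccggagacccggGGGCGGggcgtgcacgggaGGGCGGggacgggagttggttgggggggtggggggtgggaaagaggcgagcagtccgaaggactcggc
The Col3a1 window was poor in G and C (35.2%) and held 1 TATAAA, the Sparc window held 0 matches, and the Hspg2 window, 70% G and C, held 5 copies of GGGCGG. A promoter was listed for 27 of the 42 members. A member listed with 2 windows was counted if either held a match, whereas the shares of all windows count single windows. TATAAA was found in 3 of the 9 listed members that were lower at 20 weeks (Col3a1, Postn and Vim) and in 0 of 3 that were higher, against 12.4% of all 32851 windows. GGGCGG was found in 1 of those 9 (Col1a2) and in 3 of the 3 (Hspg2, Timp1 and Timp3), against 32.7% of all windows. CCAAT, in 33.8% of windows, was found in 3 of 9 and 1 of 3. TGANTCA was found in 1 of 9 and 0 of 3 against 6.75%, and the CArG box in 0 of either against 1.47%. Over all 27 listed members, called or not, TATAAA was found in 3, CCAAT in 11, GGGCGG in 16, TGANTCA in 1 and the CArG box in 0. A match is a run of letters and no evidence of binding, and the gene groups were formed from the expression values.

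Most differences lay between the ages, 20 weeks with high fat and 8 weeks with low fat. Fold changes are on log2(RPM + 1), so changes of low genes are understated, and are means over both genotypes unless a genotype is named. Of 33 members tested, limma called 12 lower and 4 higher at 20 weeks with adjusted p under 0.05, against 6.05% lower and 31.2% higher among all 13347 genes tested. The median log2 fold change was -0.32 over the tested members and 0.17 over all tested genes. As the set was chosen with earlier results known, these shares describe it and are no test of it. Members that passed the filter through 1 age alone had to be high there, and among the 27 that passed in both ages 7 were lower and 3 higher. The split also leaned on the high libraries: without knockout-labelled replicate 2 of 8 weeks 9 members were lower and 8 higher, with medians of -0.04 over members and 0.27 over all tested genes. Leaving out wild-type replicate 2 of 8 weeks gave 7 lower and 5 higher, with medians of -0.10 and 0.21. The genes that fell were mostly those of interstitial matrix and of fibroblasts, and the basement membrane genes mostly did not pass the test. In bulk RNA, fewer cells of a type and less RNA per cell cannot be told apart. Without a filter, 9 of 42 members had all 4 libraries of 20 weeks below all 4 of 8 weeks, against 5.43% of all genes, and 3 had them above, against 22.4%.

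**Figure D1:**
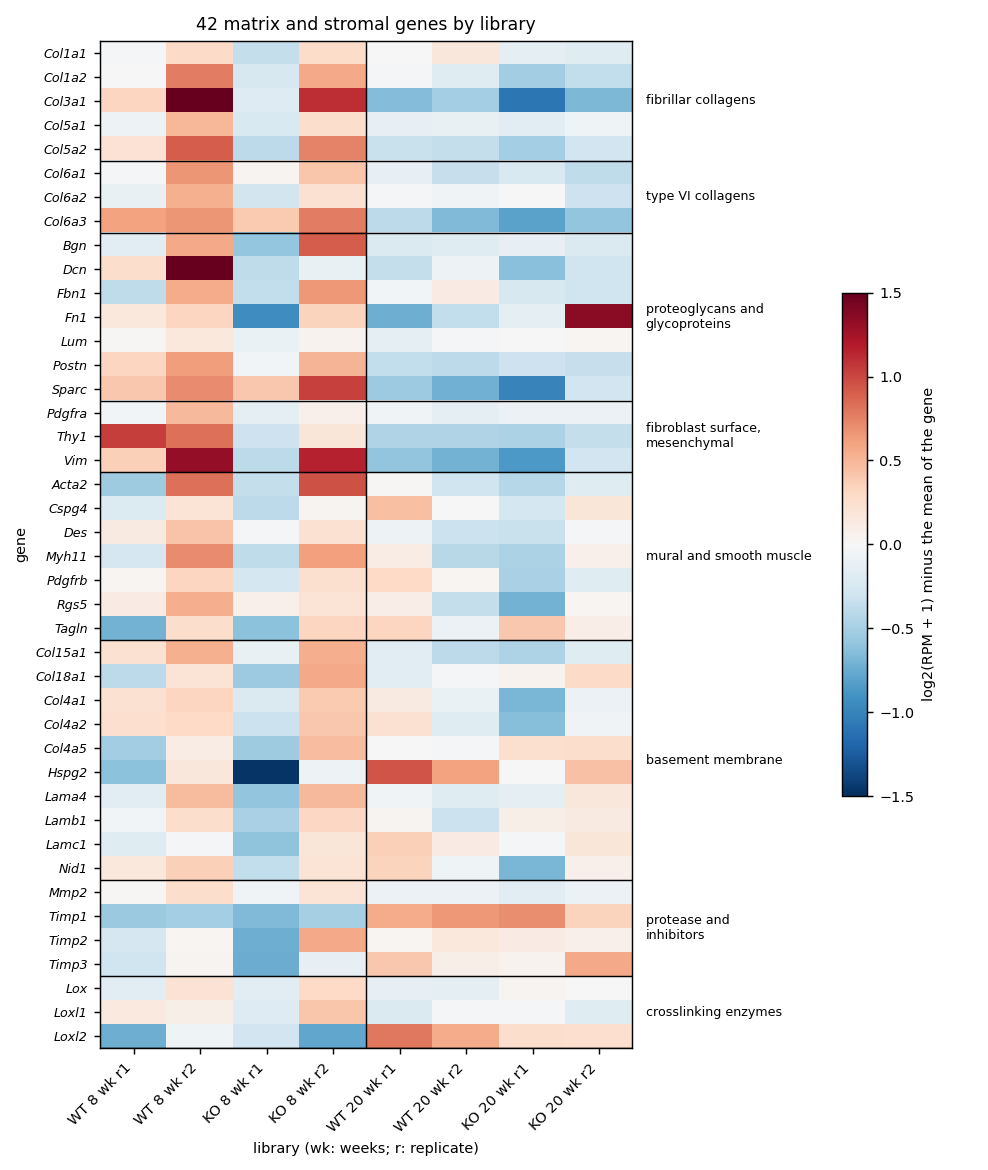
Levels of the 42 members in the 8 libraries, as log2(RPM + 1) minus the gene's mean over libraries (colour, limited to 1.5 on either side), with genes in order of role. KO stands for libraries labelled knockout. The second 8-week library of each genotype is the highest for most matrix genes, and Timp1, Timp3, Loxl2 and Hspg2 are high at 20 weeks.

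The fibrillar collagens, which form the tension-bearing fibres of connective tissue, were lower at 20 weeks in each of the 3 members tested. Col3a1, which encodes the type III chain, stood at 4.95 and 14.3 RPM in wild-type islets and 3.18 and 9.31 RPM under the knockout label at 8 weeks. At 20 weeks it stood at 2.04 and 2.37 RPM in wild-type islets and 1.26 and 1.99 RPM under the knockout label. The 4 values of 20 weeks lay below the 4 of 8 weeks, and replicate 2 was the high library of each 8-week pair. The log2 fold change was -1.46 ± 0.26 (SE; limma adjusted p = 0.00031), and the mean level fell from 7.94 ± 4.97 to 1.91 ± 0.467 RPM (SD, n = 4). Left without wild-type replicate 2 or knockout-labelled replicate 2 of 8 weeks, it was -1.12 or -1.13.

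Col5a2, a type V chain that sits in the core of thin fibrils, stood at 1.77 and 3.48 RPM in wild-type islets and 0.821 and 3.0 RPM under the knockout label at 8 weeks. At 20 weeks its 4 values lay between 0.681 and 0.951 RPM, so the groups overlapped through the knockout-labelled replicate 1 of 8 weeks. Its log2 fold change was -0.74 ± 0.20 (limma adjusted p = 0.0082). Col1a2, the second chain of type I collagen, fell by 0.55 ± 0.19 (limma adjusted p = 0.028), from 2.35 ± 1.07 to 1.22 ± 0.344 RPM (SD, n = 4). That call was lost without a filter and when any of 4 single libraries was left out: replicate 2 of either 8-week pair, wild-type replicate 2 of 20 weeks or knockout-labelled replicate 1 of 20 weeks. Col1a1, the other type I chain, ran from 0.0889 to 0.697 RPM at 8 weeks and 0.231 to 0.562 RPM at 20 weeks, and Col5a1 from 0.308 to 1.17 RPM and 0.375 to 0.475 RPM. Per kilobase, Col1a2 exceeded Col1a1 by 1.27 to 7.43 times over the 8 libraries.

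Type VI collagen, a beaded filament around cells and adipocytes, moved likewise. Col6a3, its longest chain, stood at 4.50 and 4.74 RPM in wild-type islets and 3.75 and 5.17 RPM under the knockout label at 8 weeks. It stood at 1.76 and 1.29 RPM and at 1.07 and 1.4 RPM at 20 weeks. The groups did not overlap, and replicates were close at both ages. Its log2 fold change was -1.22 ± 0.14 (limma adjusted p = 2.5e-06), with -1.16 ± 0.20 in wild type and -1.28 ± 0.20 in the knockout-labelled libraries. Col6a1 fell by 0.54 ± 0.16 (limma adjusted p = 0.012), from 1.19 ± 0.497 to 0.474 ± 0.12 RPM (SD, n = 4). Col6a2, not tested, had a mean of 0.746 RPM at 8 weeks and 0.498 RPM at 20 weeks. Summed over the 3 chains, levels were 4.89 to 7.85 RPM at 8 weeks and 2.05 to 2.96 RPM at 20 weeks.

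**Figure D2:**
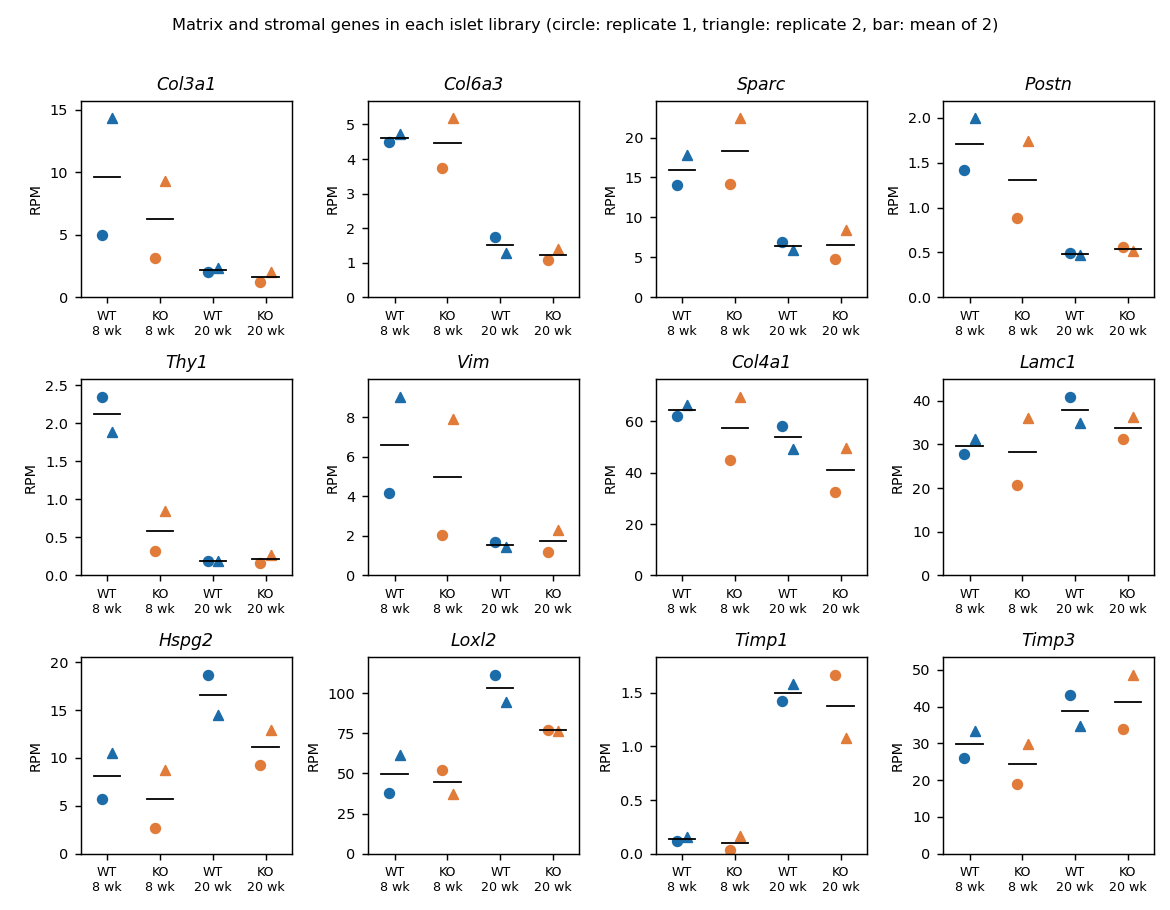
Levels in RPM of 12 members in each library (circle, replicate 1; triangle, replicate 2; bar, mean of the 2), by group. Col3a1, Col6a3, Sparc and Postn have all 20-week values below all 8-week values, and Timp1 and Loxl2 have them above.

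Among the small proteoglycans and the matrix glycoproteins grouped with them, 3 of 6 tested members fell and 0 rose. Sparc, a collagen-binding glycoprotein also known as osteonectin, stood at 14.1 and 17.8 RPM in wild-type islets and 14.2 and 22.4 RPM under the knockout label at 8 weeks. At 20 weeks it stood at 6.86 and 5.96 RPM in wild-type islets and 4.73 and 8.40 RPM under the knockout label, all below the 8-week values. Its log2 fold change was -1.27 ± 0.18 (limma adjusted p = 2.5e-05), near that of Col3a1. Postn (periostin), which aids collagen assembly, ran from 0.878 to 1.99 RPM at 8 weeks and from 0.473 to 0.562 RPM at 20 weeks. The ranges did not overlap, with a log2 fold change of -0.71 ± 0.15 (limma adjusted p = 0.00098).

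Dcn (decorin), which coats collagen fibrils, was called lower (log2 fold change -0.68 ± 0.21, limma adjusted p = 0.016), but its 8-week values were uneven. It stood at 1.02 and 4.06 RPM in wild-type islets and 0.288 and 0.555 RPM under the knockout label at 8 weeks, and at 0.0851 to 0.592 RPM at 20 weeks. The ranges of the ages overlapped, and Dcn was below the filter without either wild-type library of 8 weeks. Bgn (biglycan), a relative of decorin, had a log2 fold change of -0.37 ± 0.23, and Fbn1 (fibrillin-1), the backbone of microfibrils, -0.23 ± 0.21 (limma adjusted p = 0.23 and 0.41). Lum (lumican), another collagen-binding proteoglycan, stayed between 0.0355 and 0.271 RPM in all libraries.

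Of the mesenchymal genes, Vim, the intermediate filament vimentin, and Thy1, a surface glycoprotein of fibroblasts that neurons and T lymphocytes also carry, were called lower. Vim stood at 4.15 and 9.04 RPM in wild-type islets and 2.06 and 7.89 RPM under the knockout label at 8 weeks, and at 1.67, 1.45, 1.21 and 2.29 RPM in the same order at 20 weeks. The low 8-week library, knockout-labelled replicate 1, fell within the 20-week range. Its log2 fold change was -1.22 ± 0.26 (limma adjusted p = 0.0013). Thy1 stood at 2.35 and 1.89 RPM in wild-type islets and 0.319 and 0.842 RPM under the knockout label at 8 weeks, and at 0.170 to 0.274 RPM at 20 weeks. The ages did not overlap, and the wild-type pair of 8 weeks was the highest (log2 fold change -0.87 ± 0.14, limma adjusted p = 1.0e-04). Pdgfra, the receptor that defines many fibroblasts, ran from 0.0627 to 0.645 RPM at 8 weeks and 0.0592 to 0.124 RPM at 20 weeks.

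Summed over 7 members that mark fibroblasts and stellate cells, levels were 10.6 and 25.4 RPM in wild-type islets and 5.24 and 14.8 RPM under the knockout label at 8 weeks. At 20 weeks they were 4.73 and 5.24 RPM in wild-type islets and 2.86 and 4.16 RPM under the knockout label. The low 8-week library was thus at the top of the 20-week range. Leukocyte markers summed to between 2.60 and 16.8 RPM at 8 weeks and between 3.01 and 5.44 RPM at 20 weeks, with 3 of 4 tested markers called lower at 20 weeks and 2 of 6 (Cd3e and Cd79a) below 1 RPM in every library. Markers of Schwann cells and neurons summed to 11.5 to 27.3 RPM at 8 weeks and 12.5 to 14.4 RPM at 20 weeks, with 2 of 6 tested called lower and S100b and Sox10 below 1 RPM throughout. Their part in the fall of Thy1 was not tested. Adipocyte markers were below 1 RPM in every library for 5 of 6 genes, and mesothelial markers for 4 of 5.

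**Figure D3:**
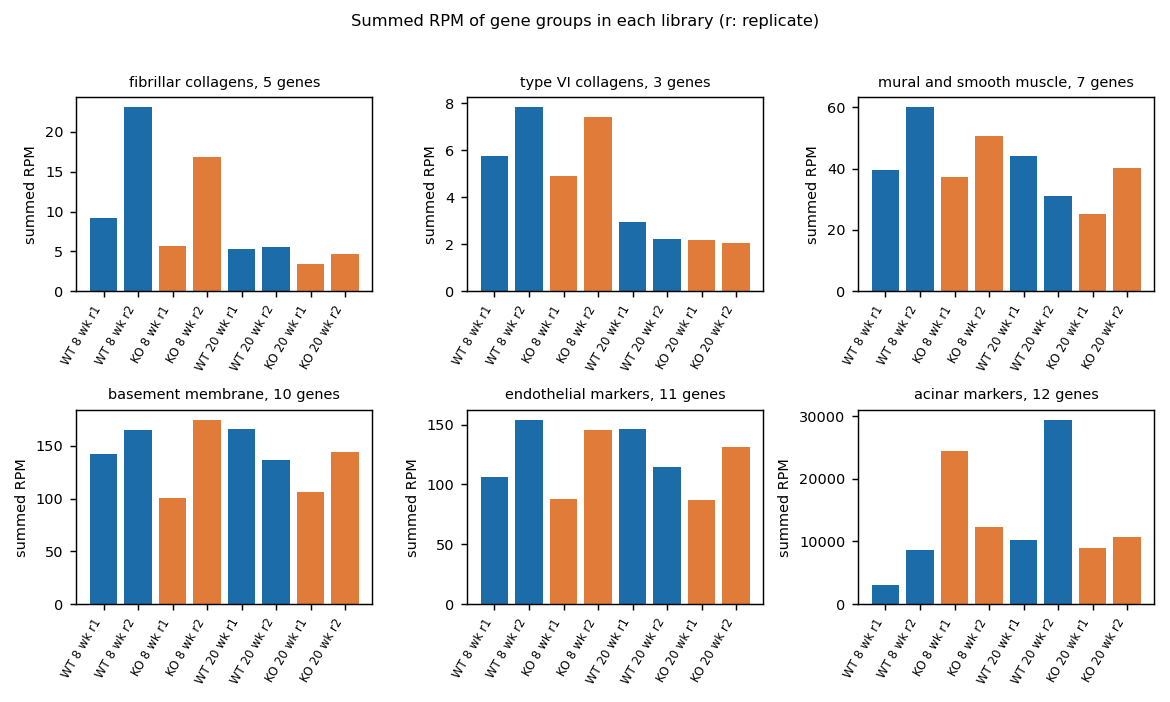
Summed RPM of member roles and of marker lists, with each bar a single library (r, replicate). Fibrillar and type VI collagens are lower at 20 weeks, whereas the sums of the mural, basement membrane and endothelial genes overlap between ages.

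Of the 6 mural cell genes tested, 1 was called. Rgs5, a signalling regulator that marks pericytes, ran from 29.6 to 41.4 RPM at 8 weeks and from 16.8 to 30.1 RPM at 20 weeks, and its log2 fold change of -0.47 ± 0.18 was at the threshold (limma adjusted p = 0.050). The call was lost under 7 of 16 alternatives, and the ages overlapped. Acta2, smooth muscle actin, had a log2 fold change of -0.45 ± 0.26, Myh11, smooth muscle myosin, -0.35 ± 0.23, and Pdgfrb, the pericyte receptor for PDGF-B, -0.17 ± 0.16 (limma adjusted p = 0.19, 0.25 and 0.42). Cspg4, the pericyte proteoglycan NG2, had 0.18 ± 0.16 and Tagln, the actin-binding transgelin, 0.37 ± 0.21 (limma adjusted p = 0.40 and 0.19). Exons of an antisense gene cover 62.4% of the Tagln exons, and those of Pcsk7, also on the other strand, cover 5.43%. Pcsk7 had a mean of 12.3 RPM at 8 weeks and 14.7 RPM at 20 weeks. Des, the filament desmin, had a mean of 0.802 RPM at 8 weeks and 0.376 RPM at 20 weeks. The summed mural level was 37.3 to 60.2 RPM at 8 weeks and 25.4 to 44.2 RPM at 20 weeks.

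In the basement membrane, 1 of 10 members fell and 1 rose. Col15a1, a collagen that links basement membranes to the matrix beneath, stood at 4.99 and 6.39 RPM in wild-type islets and 3.73 and 6.47 RPM under the knockout label at 8 weeks, and at 3.57, 2.90, 2.71 and 3.5 RPM in the same order at 20 weeks. The ages did not overlap (log2 fold change -0.60 ± 0.16, limma adjusted p = 0.0079). Hspg2, which encodes the heparan sulphate proteoglycan perlecan, moved the other way. It stood at 5.68 and 10.5 RPM in wild-type islets and 2.70 and 8.73 RPM under the knockout label at 8 weeks, and at 18.7, 14.5, 9.28 and 12.9 RPM in the same order at 20 weeks. Only wild-type replicate 2 of 8 weeks reached into the 20-week range, and the log2 fold change was 1.0 ± 0.24 (limma adjusted p = 0.0034).

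The type IV chains Col4a1 and Col4a2, which form the sheet of the membrane, are transcribed away from each other from starts at either end of the 22 bases their first exons share in RefSeq.
Col4a1 and Col4a2, chr8:11312805-11312826 (GRCm38.p6), plus strand: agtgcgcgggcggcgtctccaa
Col4a1 stood at 62.1 and 66.4 RPM in wild-type islets and 45.1 and 69.7 RPM under the knockout label at 8 weeks, and at 58.2, 49.4, 32.4 and 49.5 RPM in the same order at 20 weeks. Its log2 fold change was -0.36 ± 0.18 and that of Col4a2 -0.32 ± 0.18 (limma adjusted p = 0.13 and 0.19). Per kilobase, Col4a1 was 2.47 to 2.86 times Col4a2 in each library, a narrow range beside that of the type I chains. Both chains passed the test, as lower, once libraries were scaled by median of ratios or by edgeR. The laminin subunits Lamc1, Lamb1 and Lama4 had log2 fold changes of 0.32 ± 0.17, -0.03 ± 0.17 and -0.11 ± 0.20, and Nid1, which ties laminin to type IV collagen, -0.17 ± 0.18 (limma adjusted p from 0.16 to 0.92). Col18a1, the source of endostatin, had 0.08 ± 0.20 and Col4a5, a further type IV chain, 0.24 ± 0.19 (limma adjusted p = 0.79 and 0.34). Endothelial markers summed to 87.8 to 154 RPM at 8 weeks and 87.0 to 147 RPM at 20 weeks, with 1 of 11 called higher (Flt1) and 1 lower (Tie1).

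Matrix inhibitors and a crosslinking enzyme made up the rest of the members called higher. Loxl2, a lysyl oxidase that crosslinks type IV collagen, stood at 38.0 and 61.3 RPM in wild-type islets and 52.2 and 36.9 RPM under the knockout label at 8 weeks. At 20 weeks it stood at 111 and 94.6 RPM in wild-type islets and 76.9 and 76.6 RPM under the knockout label, all above the 8-week values (log2 fold change 0.93 ± 0.18, limma adjusted p = 0.00065). Its relatives Lox and Loxl1 stayed below 1 RPM, at 0.0179 to 0.403 RPM and 0.272 to 0.964 RPM. Timp1, an inhibitor of matrix metalloproteinases, stood at 0.0366 to 0.165 RPM at 8 weeks and 1.08 to 1.67 RPM at 20 weeks. Its mean rose 12.2-fold, with a log2 fold change of 1.12 ± 0.13 (limma adjusted p = 3.1e-06). Timp3, the inhibitor that binds to matrix, rose by 0.56 ± 0.18 on the log2 scale (limma adjusted p = 0.021), from 27.1 ± 6.15 to 40.1 ± 7.1 RPM (SD, n = 4), and Timp2 had 0.20 ± 0.21 (limma adjusted p = 0.48). Mmp2, gelatinase A, stood at 0.0732 to 0.336 RPM at 8 weeks and at most 0.0473 RPM at 20 weeks, without overlap.

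Some of the members called higher overlap a gene on the other strand. No source used here says whether counting used strand, and without it reads of the 2 genes could not be told apart. Timp1 lies wholly within Syn1 and Timp3 wholly within Syn3, both on the opposite strand in GENCODE M21. Exons of Syn3 cover 21.3% of the Timp3 exons, whereas no exon of Syn1 overlaps those of Timp1. Syn1, which encodes synapsin I, stood at 6.35 to 11.8 RPM at 8 weeks and 19.7 to 23.3 RPM at 20 weeks. Syn3, synapsin III, stood at 7.45 to 17.0 RPM and 62.6 to 74.2 RPM. The log2 fold changes were 1.06 ± 0.16 and 2.35 ± 0.20 (limma adjusted p = 5.1e-05 and 2.5e-08). The values of Timp1 and Timp3 are thus uncertain, and the part of Syn1 or Syn3 reads in them was not tested. Across the table, limma called 42.4% of 6103 genes that overlap an opposite-strand gene higher at 20 weeks, against 21% of 7011 that do not, and 3.6% against 8.2% lower. Of the 33 tested members, 13 overlap such a gene and 20 do not. Of the 4 members called higher, Loxl2, Timp1 and Timp3 overlap such a gene and Hspg2 does not. Of the 12 called lower, 11 do not, Col15a1 being the exception. No values of the genes opposite Loxl2 and Col15a1 were used here.

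**Figure D4:**
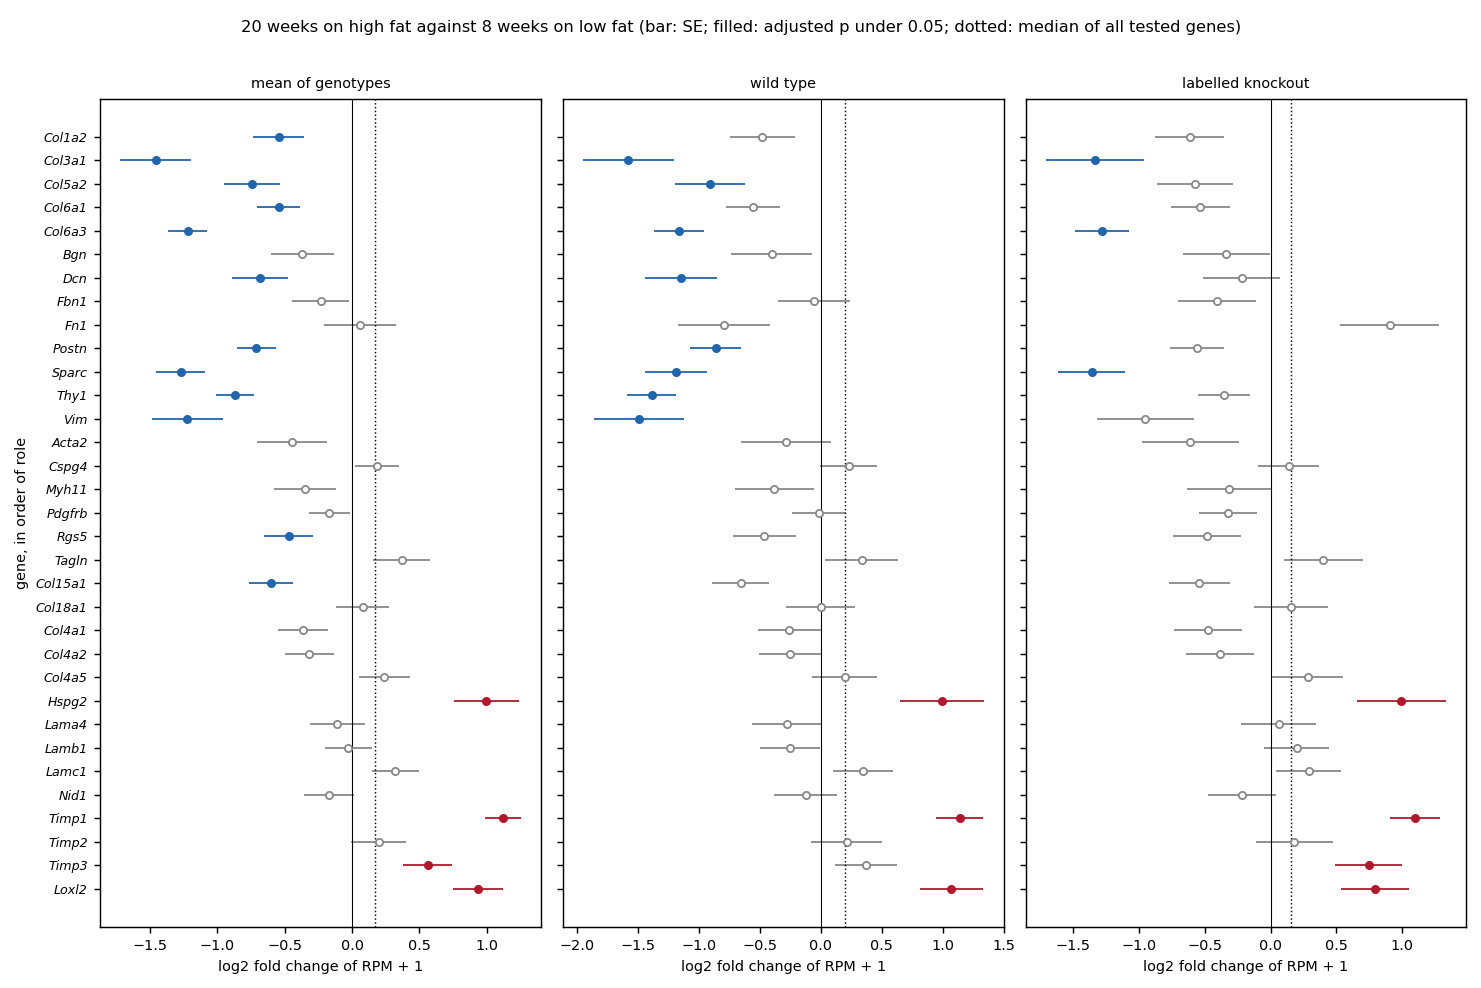
Log2 fold change of RPM + 1, 20 weeks (high fat) against 8 weeks (low fat), for the 33 tested members, as the mean of genotypes, in wild type and in the knockout-labelled libraries (point, estimate; bar, SE; filled, limma adjusted p under 0.05; dotted line, median of all tested genes). Col3a1, Sparc, Vim and Col6a3 are lowest, at -1.46 to -1.22, and Timp1 and Hspg2 highest, at 1.12 and 1.0.

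How many genes were called between the ages depended on scaling. The listed genes took 41.6% to 51.0% of a library's total reads at 8 weeks and 55.7% to 61.2% at 20 weeks, so that the median of all tested genes was 0.17 on the authors' scale, -0.02 after median-of-ratios scaling and -0.16 after scaling to the reads in listed genes. Set against the median of all genes on the authors' scale, the log2 fold change was -1.63 for Col3a1, -1.44 for Sparc, -1.39 for Vim and Col6a3, 0.83 for Hspg2, 0.76 for Loxl2, 0.95 for Timp1 and 0.39 for Timp3. With median-of-ratios scaling 15 members were lower and 4 higher, the 16 earlier calls with Col4a1, Col4a2 and Pdgfrb added as lower, against 29.4% lower and 29.6% higher among all tested genes. Scaled to the reads in listed genes, 18 were lower and 3 higher, against 38.9% and 19.0%, and Timp3 lost its call. The share of higher among called members was 25% on the authors' scale, 21.1% with median of ratios and 14.3% scaled to listed genes, and among all called genes it was 83.8%, 50.2% and 32.8%. Beside the losses named above, the calls of Col15a1, Hspg2, Col5a2, Vim, Dcn and Col6a1 were lost where genes were not filtered on low values, and that of Timp3 also there and without wild-type replicate 1 of either age or knockout-labelled replicate 2 of 20 weeks.

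Within wild type 8 members were lower and 3 higher at 20 weeks, against 1.63% and 16.9% of all tested genes. Within the knockout-labelled libraries 3 were lower (Col3a1, Sparc and Col6a3) and 4 higher, against 2.22% and 19.8%. This balance leaned on single libraries, and the whole table moved with it. Without knockout-labelled replicate 1 of 8 weeks the median log2 fold change was -0.57 over members and -0.03 over all tested genes. Without replicate 2 of that pair the medians were 0.09 and 0.36. Hspg2, Loxl2 and Timp1 were higher in both genotypes with every library in. These counts do not show that the genotypes differ in their response: the interaction of genotype and setting was called for 0 of 33 members by limma, against 0.0674% of all tested genes, with 3 members at an unadjusted p below 0.05 and 0 called by edgeR (0.0225% of all tested genes). Its smallest p was that of Thy1, at 1.03 ± 0.28 (limma adjusted p = 0.29), followed by Fn1 at 1.70 ± 0.53 (limma adjusted p = 0.48) and Dcn at 0.92 ± 0.42 (limma adjusted p = 1.0).

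The genotype comparison asked what loss of Tcf7 does to islet RNA. At 8 weeks, Thy1 was the 1 member called, as lower in the knockout-labelled libraries, out of 33 tested, against 0.195% of all tested genes called lower and 0.015% higher. With the values given above, the 2 wild-type libraries lay above both others, and the log2 fold change was -1.0 ± 0.20 (limma adjusted p = 0.043). The call was lost under 8 alternatives, among them edgeR on the recovered reads (-1.95, adjusted p = 0.25) and the fit without knockout-labelled replicate 1 of 8 weeks (-0.76, limma adjusted p = 0.38), and DESeq2 kept it (-1.96, adjusted p = 0.0055). Thy1 fell below the filter without either wild-type library of 8 weeks. Thy1 and Dcn were tested only because that pair was high, so the filter favoured lower values under the knockout label.

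Thy1 was not alone in being high in the wild-type pair of 8 weeks. Leukocyte markers summed to 15.0 and 16.8 RPM there, 2.60 and 3.04 RPM in the knockout-labelled pair and 3.01 to 5.44 RPM at 20 weeks, and 3 of 4 tested (Ptprc, Ms4a1 and Cd79b) were called lower in the knockout-labelled libraries at 8 weeks. Of the nerve markers, Nefl and Prph were called lower as well. The part of either list in the Thy1 result was not tested. Dcn had the larger fold, -1.18 ± 0.30, without passing (limma adjusted p = 0.15), and Hspg2, at -0.55 ± 0.34, turned to 0.15 without knockout-labelled replicate 1 of 8 weeks. Besides Thy1 and Dcn, 0 members had both knockout-labelled libraries below both wild-type ones and 0 had both above, against 7.82% and 7.28% of all genes.

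At 20 weeks 0 of 33 members were called for genotype by limma, against 0.03% of all tested genes higher and 0.015% lower, with 2 members at an unadjusted p below 0.05 and 0 called by edgeR (0.0% of all tested genes). Fn1 (fibronectin), the adhesive glycoprotein on which cells and collagen assemble, had the largest fold. It stood at 1.47 and 1.76 RPM in wild-type islets and 0.162 and 1.79 RPM under the knockout label at 8 weeks, and at 0.337 and 0.710 RPM in wild-type islets and 1.02 and 4.64 RPM under the knockout label at 20 weeks. Replicates of the knockout label differed several times over at both ages. Its log2 fold change at 20 weeks was 1.16 ± 0.38 (limma adjusted p = 0.63), 0.42 without knockout-labelled replicate 2 and 1.90 without replicate 1 of 20 weeks, the latter passing the test (limma adjusted p = 0.015). It also passed without either wild-type library of 8 weeks and with the compared libraries alone. Pdgfrb stood at 3.29 and 2.54 RPM in wild-type islets and 1.48 and 2.07 RPM under the knockout label, a log2 fold change of -0.50 ± 0.22 (limma adjusted p = 1.0). Both knockout-labelled libraries lay below both wild-type ones for 8 of 42 members and above for 7, against 15.4% and 11.9% of all genes.

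**Figure D5:**
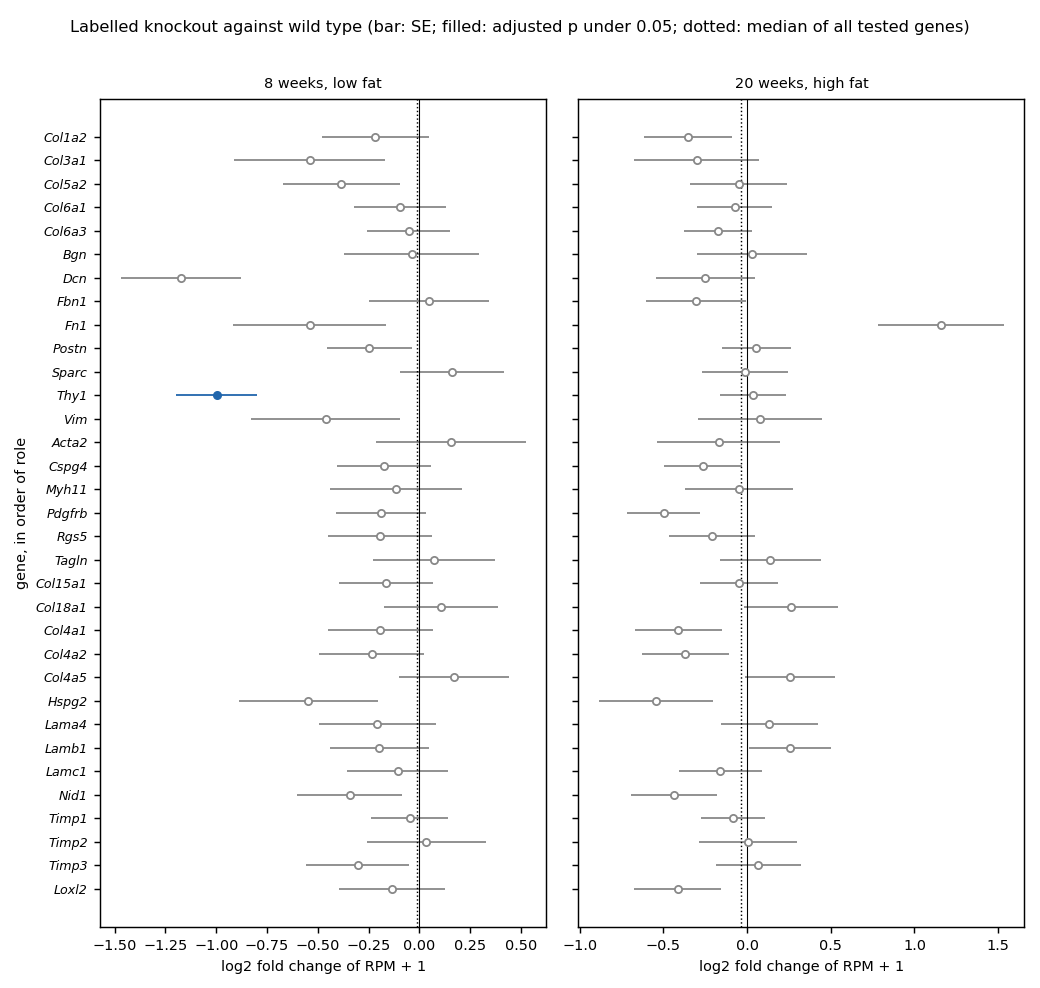
Log2 fold change of RPM + 1 in labelled knockout against wild type for the 33 tested members at 8 weeks on low fat and at 20 weeks on high fat (point, estimate; bar, SE; filled, limma adjusted p under 0.05; dotted line, median of all tested genes). Thy1 at 8 weeks, at -1.0, is the 1 filled point, and Fn1 at 20 weeks stands out at 1.16 with a wide SE.

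Genes of the same pathways outside the set were counted from lists of 169 genes, 117 of them tested. At 20 weeks 34 were higher and 8 lower, shares of the tested genes to be read against 31.2% and 6.05%, with a median log2 fold change of 0.15. Some of them passed the filter through 1 age alone and had to be high there. For genotype at either age and for the interaction 0 were called. Of 19 other collagens 7 rose and 1 fell, of 17 collagen-processing genes 4 and 3, of 15 laminin and basement membrane genes 4 and 1, and of 13 elastic fibre and glycoprotein genes 2 and 2. Of 9 proteases and inhibitors 4 rose and 0 fell, of 19 matrix receptors 5 and 0, of 16 genes of TGF-beta and PDGF signalling 5 and 0, and of 9 contractile and mural genes 3 and 1.

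Serpinh1 (HSP47), the chaperone that folds procollagen, fell by 0.68 on the log2 scale, from a mean of 10.4 to 5.99 RPM. Col10a1, the type X chain of cartilage, stood at 0 RPM in 3 of the 8-week libraries, 0.0122 RPM in the fourth and 2.35 to 3.17 RPM at 20 weeks. It lies wholly within Nt5dc1 on the other strand, which stood at 12.3 to 19.5 RPM at 8 weeks and 98.9 to 118 RPM at 20 weeks, so the values of Col10a1 are uncertain in the same way as those of Timp1. Mmp11, a metalloproteinase that overlaps Chchd10 in part on the other strand, had a mean of 0.144 RPM at 8 weeks and 7.98 RPM at 20 weeks (log2 fold change 2.96). The means of Chchd10 were 7.29 RPM at 8 weeks and 7.8 RPM at 20 weeks. Itga11, a collagen receptor subunit, rose from a mean of 0.0268 to 1.34 RPM and Papln, a papilin of basement membranes, from 0.137 to 1.51 RPM, and neither overlaps an opposite-strand gene in the annotation used. The called genes of smallest p in the other lists rose as well. Their means went from 0.112 to 1.65 RPM for Pcolce2, an enhancer of procollagen cleavage, from 0.321 to 1.15 RPM for Mfap2, a microfibril protein, from 14.0 to 26.7 RPM for Tgfbr3, the receptor betaglycan, and from 20.3 to 37.1 RPM for Anpep, an aminopeptidase of pericytes. Of these, Pcolce2 and Tgfbr3 overlap opposite-strand genes that were not used here. Col10a1, Mmp11, Itga11, Papln and Pcolce2 had 8-week means so low that no 8-week library reached 1 RPM. They passed the filter through 20-week libraries alone, so only a rise could be called.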

How the data were processed

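Total RNA was depleted of ribosomal RNA (RiboZero) and made into libraries with the TruSeq kit of Illumina, per the labels' protocols. Tools named in the submitters' processing notes are TopHat 1.4.1, CASAVA 1.8 and FastQC, with mm9 as the mouse build. No source used here gives the counting tool, its annotation or its use of strand. The authors deposited values in RPM. They came out as whole reads within 0.01 of a read for 100% of values, which gave totals of 58.7 to 191 M reads per library, 32.7 to 103 M of them in listed genes, and a worth of 0.00523 to 0.0170 RPM for 1 read.

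limma 3.58.1 (R 4.3.3, variance trend) was fitted on log2(RPM + 1) to the means of the 4 groups together, for the 13347 genes that reached 1 RPM in 2 or more libraries. P-values were adjusted by Benjamini-Hochberg over all of them, with a threshold of 0.05. edgeR 4.0.16 and DESeq2 1.42.0 on the recovered reads were among 17 alternatives. The deposited table listed 25 symbols as dates, restored by identifier. Exon lengths and overlaps came from GENCODE M21, matched for 20750 of 22632 identifiers, and promoters from RefSeq, both on GRCm38. As this is not the authors' build, no values were read by position. Genes named are all members, with the called gene of smallest p in each related list and a few singled out after their values were seen. The members, roles, related genes and markers were chosen with earlier results of these data known, and 1 leukocyte marker is not reported here. Libraries of a group differed beyond sampling noise (chi-square per degree of freedom 45.0 to 354), and none were merged.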

Additional observations from a re-analysis of the deposited data

How the results depend on the processing

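No paired analysis was possible because the labels give no replicate numbers. Over 17 alternatives, 347 of 392 values of single members kept direction and side of the threshold, 31 lost and 13 gained a call, and 1 reversed: Hspg2 for genotype at 8 weeks, 0.15 without knockout-labelled replicate 1 of that age, where it was -1.24 without replicate 2. For 20 against 8 weeks, 16 members were called, 8 with no filter and 8 with a minimum of 5 RPM, where fewer members were tested, and 12 to 21 with a library left out. Loxl2, Col3a1, Thy1, Timp1, Postn, Sparc and Col6a3 kept this call in each alternative that tested them. Thy1 was tested in 13 alternatives and Timp1, Postn and Col6a3 in 15, against 16 for Loxl2, Col3a1 and Sparc. Thy1 and Postn passed the main filter through 8-week libraries alone and Timp1 through 20-week libraries alone, so they had to be high there. In wild type alone, 11 calls became 4 with no filter, 6 with a minimum of 5 RPM, 17 with DESeq2 and 7 to 12 with a library left out. In the knockout-labelled libraries, 7 became 13 with either scaling, 3 with no filter, 15 with edgeR, 17 with DESeq2 and 4 to 15 with a library left out. For genotype at 8 weeks, the 1 call became 0 with edgeR, either scaling, no variance trend, the compared libraries alone, a pseudocount of 0.1, a minimum of 5 RPM or no filter, 2 with DESeq2 (Dcn and Thy1), and 0 to 2 with a library left out. At 20 weeks, 0 calls became 1 (Fn1) with the compared libraries alone and 0 to 1 with a library left out, as for the interaction. The causes of these moves were not tested. With 2 libraries a group, a left-out library leaves 1, assumed to vary like the rest. Depth limits Lum, Mmp2, Lox and Pdgfra, at under 1 RPM throughout.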
